A study of Mus musculus with 61 samples.

Results

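The dual-specificity MAP kinase phosphatases and the Sprouty and Spred proteins form a feedback layer that limits signalling through RAS and the MAP kinases. The 10 genes of it were followed by symbol in RNA-seq counts, namely *Dusp1*, *Dusp2*, *Dusp4*, *Dusp5*, *Dusp6*, *Dusp7*, *Dusp10*, *Dusp16*, *Spry1* and *Spred1*, which are 10 of the 24421 genes counted in every library. Dual-specificity phosphatases remove phosphate from both the threonine and the tyrosine of the activation loop of a MAP kinase. DUSP1, DUSP2, DUSP4 and DUSP5 are inducible nuclear enzymes, and DUSP5 is specific for ERK. DUSP6 and DUSP7 are cytoplasmic and act on ERK, whereas DUSP10 and DUSP16 prefer p38 and JNK. SPRY1 and SPRED1 act further upstream, on the activation of RAS and RAF, and SPRED1 does so with neurofibromin. In T cells these genes are known as targets of antigen receptor and cytokine signalling, and many are themselves induced by ERK.

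The study asked how changes of 1 tyrosine in the SH2 domain of STAT5B to phenylalanine (Y665F) or histidine (Y665H), a transcription factor activated by interleukin-2 (IL-2) and IL-7, alter expression programs in mouse T cells. Per the labels all mice were C57BL/6 and 2 months old, and the methods give C57BL/6N for the zygotes in which the mutant lines were made. In the first experiment, naive CD4+ T cells (CD44low CD25-) from lymph nodes and spleens of WT mice or of mice in which Cd4-Cre deletes floxed Stat5a/b in T cells, here called null, were activated through the T cell receptor and CD28. They were then transduced with a retrovirus carrying GFP alone (empty vector), or GFP with unmutated STAT5B or with its N642H, Y665F or Y665H form, and kept for 48 h in medium with IL-2 before sorting of GFP+ cells, with 3 libraries for each of the 10 combinations. Retroviral STAT5B is driven by the vector and not by the Stat5b locus, and WT cells keep their own STAT5A and STAT5B. The labels enter floxed Stat5a/b as genotype for all 30 libraries, so that the WT background rests on the sample titles. In the second experiment, T cells isolated from spleens of WT, STAT5B-Y665H or STAT5B-Y665F mice were cultured for 24 h with IL-2 and IL-7 (4 libraries each as deposited). Y665F T cells were also measured without interleukin (3 libraries), for which the labels give no culture time and the text of the study speaks of T cells taken right after isolation, so that interleukin and culture cannot be told apart, and no WT or Y665H counterpart was compared. Y665H replicate 4 held, in 24421 of 24421 genes, exactly the sum of the reads of replicates 1 and 2, so that it has no reads of its own, and it was left out, which leaves 3 Y665H T cell libraries and 14 in that experiment. The third experiment took spleens of WT (4), Y665H (5) and Y665F (7) mice without culture. The sample labels do not state whether the mutant mice were heterozygous or homozygous.

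Levels are given as CPM, the read count of a gene scaled to a common library size with TMM factors within an experiment, so that a gene's level can be compared between libraries of one experiment and not between genes. A CD4+ T cell library held 18825994 to 49850689 reads on genes, a splenic T cell library 2017012 to 27394249 and a spleen library 24203179 to 43330536. Differences were tested with edgeR's quasi-likelihood test over all genes of an experiment with Benjamini-Hochberg adjustment, and a gene is said to have risen or fallen where the adjusted p was under 0.05. Every one of the 10 genes passed the filter of at least 10 reads in each fit. *Stat5b*, the targeted gene, averaged 5.86 CPM in null cells with the empty vector against 201 CPM in WT cells, and 217 to 315 CPM in null cells with a STAT5B vector. *Cish*, a direct STAT5 target, averaged 22.3, 201, 328, 311 and 65.1 CPM in null cells with empty vector, STAT5B, N642H, Y665F and Y665H. The summed level of 7 T cell markers was 2434 to 3953 CPM in CD4+ T cells, 639 to 2187 in splenic T cells and 334 to 818 in spleens, while 5 B cell, 5 erythroid, 6 neutrophil and 5 macrophage markers each stayed at or under 6.83 CPM in sum in every CD4+ library. Y665F T cells with interleukin replicate 3 stood furthest apart, with a T cell sum of 639 CPM beside a B cell sum of 457 and an erythroid sum of 1035 CPM, and replicate 4 of that group came next, with 1057, 131 and 86.6 CPM. Of 5 spleens labelled Y665H, 4 had erythroid sums of 3518 to 5016 CPM, against 705 to 1545 CPM in WT spleens.

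In null CD4+ T cells, the active forms N642H and Y665F moved these genes in both directions. With both forms *Dusp5* rose and *Dusp6*, *Dusp10* and *Spry1* fell, and *Dusp16* fell with N642H. Without the replicate block given below, *Dusp1*, *Dusp2*, *Dusp4*, *Dusp7* and *Spred1* passed the threshold in no comparison with the empty vector. Against the empty vector, STAT5B raised 1 of the 10 genes (*Dusp5*) and lowered none, N642H raised 1 and lowered 4, Y665F raised 1 and lowered 3, and Y665H moved none. Of all genes tested, 1.52% passed for STAT5B (0.95% higher and 0.567% lower), 11.6% for N642H (5.67% higher and 5.97% lower), 9.58% for Y665F (5.16% higher and 4.42% lower) and 0.0249% for Y665H. No call among the 10 genes exceeded a log2 fold change of 1, the minimum used in the study, which 0.477% of all genes met with STAT5B, 2.88% with N642H and 2.37% with Y665F. All 4 comparisons use the same empty-vector libraries. Replicate numbers paired the libraries in null cells, and with the number as a block the counts became 5 genes (1 higher and 4 lower) for STAT5B against 9.5% of all genes, 6 (2 higher and 4 lower) for N642H against 20.5%, 7 (3 higher and 4 lower) for Y665F against 18.4% and 0 for Y665H against 0.149%. For Y665H, 0 of the 10 had an unadjusted p under 0.05 and DESeq2 called 0. Of all 20113 genes, 1021 had an unadjusted p under 0.05 with Y665H and DESeq2 called 14. Of the 7 T cell markers, 1 was higher and 4 were lower with N642H and the same numbers with Y665F, with sums of 3436 to 3953 CPM with empty vector, 2807 to 3104 with N642H and 2837 to 3277 with Y665F. Of the 11 handling and heat stress genes, 2 were higher with either form, *Atf3* at 2.32 (adjusted p = 0.00857, 4.31 to 21.8 CPM) and *Junb* at 0.50 (adjusted p = 0.00696, 414 to 603 CPM) with N642H, and their sums were 789.7 to 993, 1092 to 1142 and 1089 to 1167 CPM. The part of either list in the differences of the 10 genes was not tested.

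**Figure D1:**
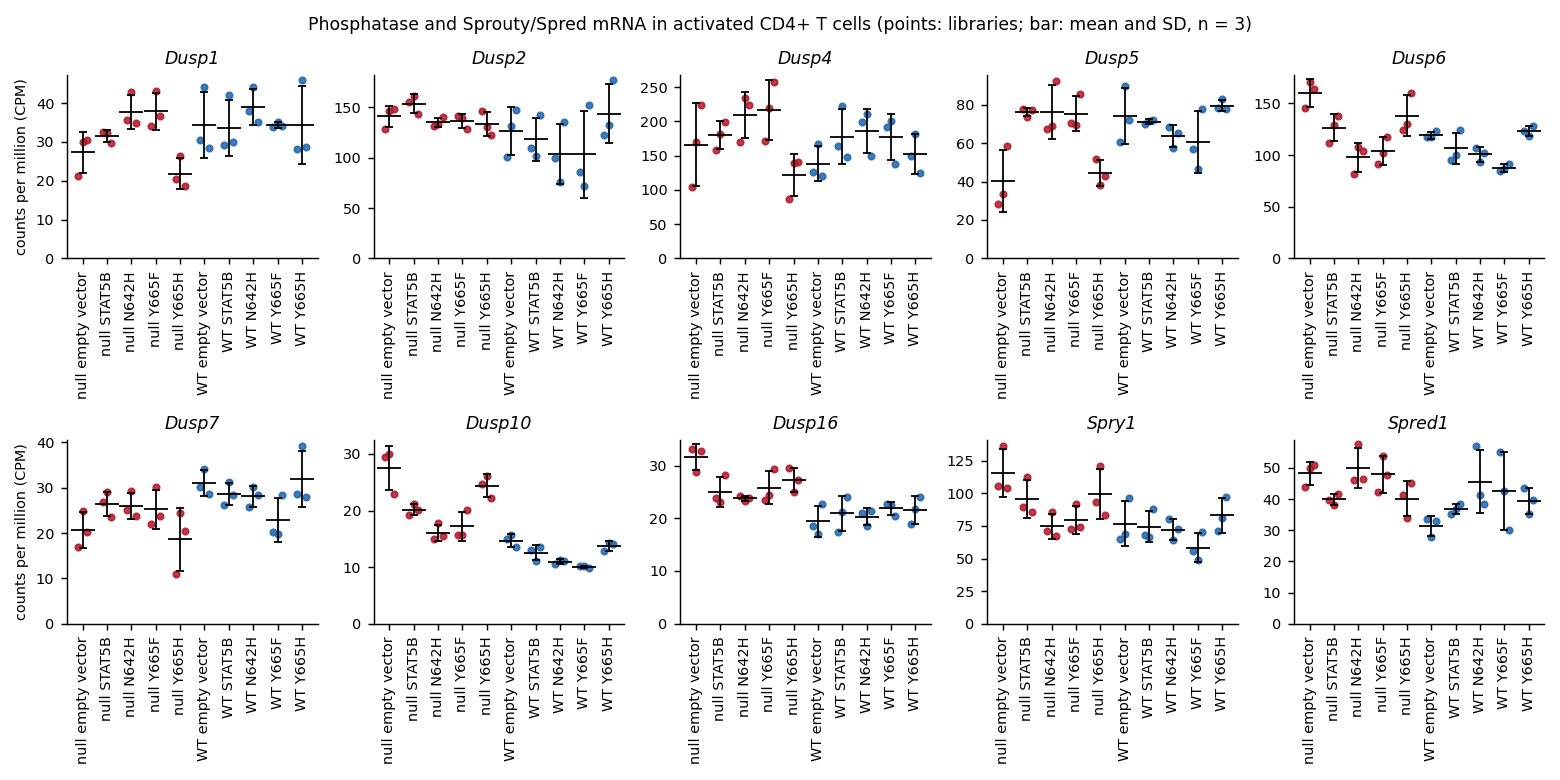
CPM (vertical axes, linear, from 0) of the 10 genes in activated CD4+ T cells, with null cells in red, WT cells in blue, a point for each library and the mean and SD of 3 libraries as bars. In null cells *Dusp5* is lowest and *Dusp6*, *Dusp10*, *Dusp16* and *Spry1* are highest with the empty vector, and Y665H lies between the empty vector and STAT5B in the mean of each of these 5 genes.

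Among the nuclear enzymes, *Dusp5* read 28.6, 33.5 and 58.7 CPM in the 3 null libraries with empty vector, 77.6, 73.6 and 76.98 with STAT5B, 67.4, 68.8 and 92.3 with N642H, 70.5, 69.5 and 85.8 with Y665F and 51.8, 38.4 and 43 with Y665H. Every library with STAT5B, N642H or Y665F was above the highest empty-vector library, and the Y665H libraries overlapped the empty vector. The log2 fold change of *Dusp5* over the empty vector was 0.91 ± 0.20 SE, adjusted p = 0.0278 for STAT5B, 0.88 ± 0.20 SE, adjusted p = 0.00735 for N642H and 0.87 ± 0.20 SE, adjusted p = 0.00954 for Y665F. For Y665H it was 0.16 ± 0.20 SE, adjusted p = 0.944, with a 95% interval of -0.23 to 0.54. The STAT5B call was lost without empty vector replicate 1 (log2 fold change 0.70, adjusted p = 0.145) or replicate 2 (0.80, adjusted p = 0.146) and without STAT5B replicate 1, 2 or 3 (adjusted p = 0.117, 0.111 and 0.0507). The Y665F call was lost without empty vector replicate 2 (0.76, adjusted p = 0.0600). With the replicate block all 3 calls held, with adjusted p = 0.000579, 0.000204 and 0.000261. Empty vector replicate 3, the highest of its group for *Dusp5*, was also the highest for *Cish* (10.2, 25.6 and 31.1 CPM) and *Stat5b* (2.78, 5.303 and 9.49 CPM).

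The other nuclear phosphatases moved less. *Dusp1*, an immediate-early gene that acts on p38, JNK and ERK, read 21.3, 30.1 and 30.6 CPM with empty vector, 35.5, 42.9 and 34.99 with N642H and 33.98, 43.1 and 36.6 with Y665F, so that both active forms lay above all empty-vector libraries, a separation seen in 28.6% and 24.4% of all genes. Its log2 fold changes of 0.43 (adjusted p = 0.0894) and 0.44 (adjusted p = 0.09098) did not pass, and with the replicate block they did, at 0.44 (adjusted p = 0.0123) and 0.44 (adjusted p = 0.0117). *Dusp4*, which acts on ERK and JNK and is itself induced by ERK, spread widely among the empty-vector libraries (104, 171 and 224 CPM) and overlapped every other null group, and its difference passed for Y665F with the block, at 0.38 (adjusted p = 0.0299) against 0.35 (adjusted p = 0.436) without it. *Dusp2*, known as PAC-1 in activated T cells, had group means of 133 to 154 CPM in the null cells, and its largest log2 fold change over the empty vector was 0.11 (adjusted p = 0.658), for STAT5B.

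Of the cytoplasmic ERK phosphatases, *Dusp6* fell with both active forms and no difference of *Dusp7* passed. *Dusp6*, a transcript that follows ERK activity closely, read 145, 171 and 164 CPM with empty vector, 112, 129 and 138 with STAT5B, 81.5, 107 and 104 with N642H, 91.1, 102 and 118 with Y665F and 124, 129.9 and 160.3 with Y665H. All libraries with STAT5B, N642H or Y665F were below the lowest empty-vector library, whereas the Y665H libraries overlapped it. *Dusp6* fell with N642H (-0.75 ± 0.14 SE, adjusted p = 0.00170) and Y665F (-0.65 ± 0.14 SE, adjusted p = 0.00539), and these calls held without any 1 library. With STAT5B the difference was -0.35 (adjusted p = 0.2197) and passed with the replicate block at -0.35 (adjusted p = 0.0137). *Dusp7* ranged from 17.01, 24.8 and 20.3 CPM with empty vector to 25.03, 29.2 and 23.7 with N642H, its libraries overlapped in every comparison with the empty vector, and no difference passed with or without the block.

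Both p38 and JNK phosphatases had their highest mean with the empty vector. *Dusp10*, the enzyme also called MKP-5, read 29.4, 30.1 and 22.95 CPM with empty vector, 19.3, 21.1 and 20.1 with STAT5B, 14.9, 17.7 and 15.4 with N642H, 15.7, 15.7 and 20.2 with Y665F and 24.8, 26.2 and 22.3 with Y665H. It fell with N642H (-0.81 ± 0.14 SE, adjusted p = 0.000826) and Y665F (-0.71 ± 0.14 SE, adjusted p = 0.002803), both calls held without any 1 library, and the STAT5B libraries, also below all empty-vector libraries, gave -0.46 (adjusted p = 0.0963) without and -0.45 (adjusted p = 0.0217) with the block. Such a separation was seen in 28.6%, 24.4% and 17.6% of all genes with N642H, Y665F and STAT5B. *Dusp16*, also called MKP-7, read 33.1, 28.8 and 32.8 CPM with empty vector and 24.2, 23.3 and 23.8 with N642H, a log2 fold change of -0.45 ± 0.12 SE, adjusted p = 0.0165. That call was lost in 5 of 6 refits that left out 1 library, namely empty vector replicate 1 (adjusted p = 0.0796) or 3 (0.0578) and N642H replicate 1 (0.0657), 2 (0.06302) or 3 (0.0624), with log2 fold changes of -0.44 to -0.38. With the block *Dusp16* passed for N642H at -0.44 (adjusted p = 0.002902), for Y665F at -0.32 (adjusted p = 0.0261) and for STAT5B at -0.35 (adjusted p = 0.0307).

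*Spry1* fell with the active forms, and no difference of *Spred1* passed. *Spry1* read 105, 137 and 104 CPM with empty vector, 89.6, 112 and 85.7 with STAT5B, 71.4, 85.3 and 67.4 with N642H, 72.8, 91.96 and 74.4 for the Y665F form and 93.6, 121 and 83.7 for the Y665H form. Replicate 2 was the highest library in each of the 5 groups, and all N642H and Y665F libraries were below all empty-vector libraries, a separation seen in 28.6% and 24.4% of all genes. It fell with N642H (-0.66 ± 0.16 SE, adjusted p = 0.0109) and Y665F (-0.56 ± 0.16 SE, adjusted p = 0.03201). The N642H call was lost without empty vector replicate 2 (adjusted p = 0.0734) or N642H replicate 1 (0.0758) or 3 (0.0699), and the Y665F call without empty vector replicate 1 (0.0589) or 2 (0.181) or Y665F replicate 1 (0.147) or 3 (0.0729). With the replicate block both held, with adjusted p = 5.38e-06 and 4.07e-05, and STAT5B also passed, at -0.27 (adjusted p = 0.02997). *Spred1* read 43.9, 49.9 and 50.9 CPM with empty vector and 46.2, 57.5 and 46.5 with N642H, with overlapping libraries and a log2 fold change of 0.02 (adjusted p = 0.962) that the block did not bring past the threshold.

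**Figure D2:**
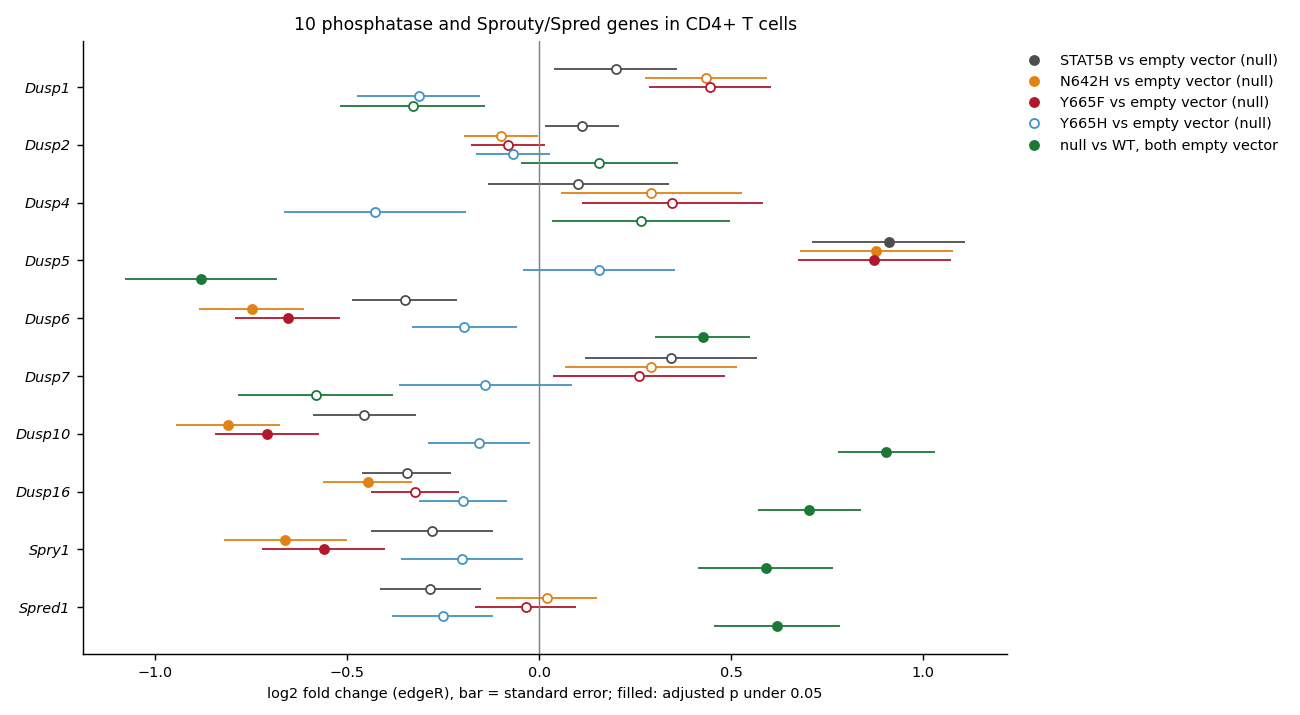
Log2 fold changes (horizontal axis, bars are standard errors) of the 10 genes (rows) for the 4 STAT5B vectors against empty vector in null CD4+ T cells, and for null against WT cells with empty vector. Filled points had an adjusted p under 0.05, and for *Dusp5*, *Dusp6*, *Dusp10*, *Dusp16* and *Spry1* the comparison of null with WT cells points away from N642H and Y665F, all of which share the null empty-vector libraries.

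The mutants were next set against STAT5B itself in null cells. Without the replicate block, no gene of the 10 passed for N642H, Y665F or Y665H against STAT5B, where 0.0845%, 0.0199% and 0.229% of all genes did. For N642H, 5 of the 10 had an unadjusted p under 0.05 and DESeq2 called 0. For Y665F, 1 of the 10 had an unadjusted p under 0.05 and DESeq2 called 0. For Y665H, 5 of the 10 had an unadjusted p under 0.05 and DESeq2 called 1, which was *Dusp5*. Of all 20113 genes, 1221, 1000 and 2126 had an unadjusted p under 0.05 for N642H, Y665F and Y665H, and DESeq2 called 126, 66 and 462. With the replicate block, *Dusp6* and *Spry1* were lower with N642H than with STAT5B, at log2 fold changes of -0.40 (adjusted p = 0.0317) and -0.38 (adjusted p = 0.0208), against 0.875% of all genes called. *Dusp5*, *Dusp4* and *Dusp1* were lower with Y665H than with STAT5B in that fit, at -0.75 (adjusted p = 0.00725), -0.57 (adjusted p = 0.0101) and -0.53 (adjusted p = 0.0157), against 4.18% of all genes, and with Y665F 0 of the 10 passed, against 0.512%. *Dusp7* was lowest in a Y665H library, at 11, 24.4 and 20.4 CPM in the 3 libraries, and gave -0.48 (adjusted p = 0.4596) against STAT5B without the block.

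In WT CD4+ T cells, which carry their own STAT5, the same vectors called none of the 10 genes in the fit without a replicate block. The share of all genes called was 0.00975% for STAT5B, 1.52% for N642H, 1.26% for Y665F and 0.00488% for Y665H. For STAT5B, 0 of the 10 had an unadjusted p under 0.05 and DESeq2 called 0. For N642H, 3 of the 10 had an unadjusted p under 0.05 and DESeq2 called 1, which was *Dusp10*. For Y665F, 4 of the 10 had an unadjusted p under 0.05 and DESeq2 called 2, *Dusp6* and *Dusp10*. For Y665H, 0 of the 10 had an unadjusted p under 0.05 and DESeq2 called 0. Among all 20509 genes, 555, 2164, 2932 and 163 had an unadjusted p under 0.05 for STAT5B, N642H, Y665F and Y665H, and DESeq2 called 20, 789, 975 and 1. Of 30 same-numbered WT pairs, 29 correlated over 0.1 (lowest r = -0.0887), with a median of 0.688 against 0.459 in null cells. The criterion asked for every pair, so that the fit with the number as a block stands with the other alternatives. That fit called *Dusp4*, *Dusp6*, *Dusp7*, *Dusp10*, *Spry1* and *Spred1* for Y665F and *Dusp4*, *Dusp10* and *Spred1* for N642H. Of all 20509 genes it called 2451 and 1699, against 258 and 312 without the block. *Dusp10* read 14.9, 15.7 and 13.5 CPM with empty vector, 10.5, 11.3 and 11.1 with N642H and 10.2, 10.2 and 9.87 with Y665F, and neither set of libraries overlapped the empty vector, as for 14.8% and 13.6% of all genes. Its log2 fold changes were -0.40 (adjusted p = 0.161) and -0.53 (adjusted p = 0.0506), the second just short of the threshold. *Dusp6* gave -0.44 (adjusted p = 0.0611) with Y665F, from 117, 117 and 123 to 84.4, 86.1 and 91.7 CPM. *Dusp5*, at 60.5, 89.7 and 71.9 CPM with empty vector and 56.9, 46.7 and 77.99 with Y665F, overlapped in all 4 comparisons. Y665F replicate 3 was the highest of its group for *Dusp2*, *Dusp5*, *Dusp7* and *Spry1* and the lowest for *Spred1*. Without it 5 of the 10 genes passed for Y665F, namely *Dusp5* (-0.53, adjusted p = 0.0308), *Dusp6* (-0.50, adjusted p = 0.0222), *Dusp7* (-0.64, adjusted p = 0.0223), *Dusp10* (-0.54, adjusted p = 0.0335) and *Spred1* (0.61, adjusted p = 0.0408). The share of all genes that passed in that refit is not given here, so that this count cannot be set against it.

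The loss of STAT5A and STAT5B was tested by comparing null with WT cells, both with empty vector. *Dusp5* was lower in null cells (-0.88 ± 0.20 SE, adjusted p = 0.00286), and *Dusp10* (0.90 ± 0.13 SE, adjusted p = 1.47e-05), *Dusp16* (0.70, adjusted p = 0.000585), *Spred1* (0.62, adjusted p = 0.0109), *Spry1* (0.59, adjusted p = 0.0235) and *Dusp6* (0.43, adjusted p = 0.0199) were higher, so that 5 of the 10 genes rose and 1 fell, where 13.9% of all genes passed, 6.83% higher and 7.06% lower. None reached the study's fold minimum, which 4.68% of all genes did. The libraries of *Dusp10* were at 29.4, 30.1 and 22.95 CPM in null and 14.9, 15.7 and 13.5 in WT cells, those of *Dusp16* at 33.1, 28.8 and 32.8 and 18.5, 16.9 and 22.7, those of *Spred1* at 43.9, 49.9 and 50.9 and 33.5, 27.7 and 33.01, and those of *Dusp5* at 28.6, 33.5 and 58.7 and 60.5, 89.7 and 71.9. No library of one background reached the other for any of the 6 genes, a separation seen in 26.8% of all genes. *Dusp7* showed the same separation (17.01, 24.8 and 20.3 against 30.2, 34.2 and 28.6 CPM) and gave -0.58 (adjusted p = 0.0535), which passed in DESeq2 (adjusted p = 0.0292), with these groups fitted alone (0.0323) and without null replicate 2 (0.0415). Calls were lost for *Dusp6* without null replicate 2 (adjusted p = 0.08298) or 3 (0.0601) or WT replicate 1 (0.0637) or 2 (0.0756), for *Spry1* without null replicate 2 (0.154) or WT replicate 1 (0.123) or 2 (0.123), and for *Spred1* without WT replicate 2 (0.08095), so that 3 genes passed without WT replicate 2. Of the 7 T cell markers 4 were higher and 1 was lower in null cells, *Cd8b1* was at 1.30 (adjusted p = 6.22e-05, 7.09 to 17.5 CPM) and *Ikzf2*, a gene of regulatory T cells, at 3.46 (adjusted p = 6.28e-10, 9.03 to 99.5 CPM). *Foxp3*, the other of the 2 regulatory T cell genes listed, did not pass. Of the handling and heat stress genes *Hspa1a* was at -3.05 (adjusted p = 0.0008695, 2.47 to 0.301 CPM) and *Hspa1b* at -2.82 (adjusted p = 0.000717, 3.802 to 0.534 CPM). The sums of the 11 genes of that list overlapped, at 790 to 993 CPM in null and 777 to 1105 CPM in WT cells. The part of these marker and stress genes in the differences of the 10 genes was not tested.

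Whether a vector acted differently in null than in WT cells was tested as an interaction. For Y665F, *Dusp5* had a log2 response that was higher in null cells by 1.19 ± 0.28 SE, adjusted p = 0.0426, and passed, alone among the 10 genes, where 0.478% of all genes did. The call was not kept with RLE size factors (adjusted p = 0.07902), with filterByExpr (0.0667), in a fit of these groups alone (0.295), or without any 1 of 9 of the 12 libraries, with adjusted p from 0.0631 to 0.223 and log2 differences of 1.00 to 1.25. It held without null empty vector replicate 3, WT empty vector replicate 1 or WT Y665F replicate 3. For N642H the *Dusp5* difference was 1.14 ± 0.28 SE, adjusted p = 0.06495, and of the 10 genes 5 had an unadjusted p under 0.05 and DESeq2 called 1, which was *Dusp5*, against 0.387% of all genes called by edgeR. Of all 21975 genes, 2255 had an unadjusted p under 0.05 there and DESeq2 called 348. The Y665F and N642H interactions share their empty-vector libraries.

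Because *Dusp5* moved against *Dusp6*, *Dusp10* and *Spry1* in null cells, their promoters are shown, together with that of *Dusp1*, the gene of the group with a cyclic AMP response element here. RefSeq sequences of the 250 bases before the annotated start (build GRCm38.p6, 5′ to 3′ on the gene's strand) matched 9 of the 10 genes, all but *Dusp4*. The windows of *Dusp16* and *Spred1* do not end at the start of an annotated transcript. Those of *Dusp10* and *Dusp1* each lie within the annotated locus, before the start of a later transcript. The window of *Dusp5* crosses the start of its annotated locus (chr19:53529109, GRCm38), so that its last bases lie within the gene. All 9 windows were searched on both strands for the STAT motif TTCNNNGAA, the AP-1 motif TGANTCA, the CRE motif TGACGTCA and the ETS core CCGGAAG, and capitals mark a match. These motifs occur in 7.02%, 6.75%, 1.55% and 6.91% of all 32851 promoters of this length. The single match among the 9 genes was the CRE of *Dusp1*, 143 bases before the start of that later transcript, and no match overlapped another. The letters of the other 3 motifs were not in these windows, which says nothing of sites elsewhere. The windows lie at chr19:53528895-53529144, plus strand (*Dusp5*), chr10:99262981-99263230, plus strand (*Dusp6*), chr1:184034131-184034380, plus strand (*Dusp10*), chr3:37639697-37639946, plus strand (*Spry1*) and chr17:26508473-26508722, minus strand (*Dusp1*).
Dusp5: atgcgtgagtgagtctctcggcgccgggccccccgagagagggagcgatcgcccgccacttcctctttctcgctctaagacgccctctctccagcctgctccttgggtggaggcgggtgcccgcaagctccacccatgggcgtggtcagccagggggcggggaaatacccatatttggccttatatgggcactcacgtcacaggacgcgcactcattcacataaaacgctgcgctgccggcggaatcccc
Dusp6: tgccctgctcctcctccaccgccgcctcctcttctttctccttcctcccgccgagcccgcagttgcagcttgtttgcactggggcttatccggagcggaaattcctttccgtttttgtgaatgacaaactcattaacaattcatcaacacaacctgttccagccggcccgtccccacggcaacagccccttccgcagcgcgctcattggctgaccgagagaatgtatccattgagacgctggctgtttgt
Dusp10: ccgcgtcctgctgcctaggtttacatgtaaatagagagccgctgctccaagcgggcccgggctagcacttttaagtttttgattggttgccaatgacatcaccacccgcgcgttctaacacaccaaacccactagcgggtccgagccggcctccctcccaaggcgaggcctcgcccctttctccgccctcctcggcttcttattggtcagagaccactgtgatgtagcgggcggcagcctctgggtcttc
Spry1: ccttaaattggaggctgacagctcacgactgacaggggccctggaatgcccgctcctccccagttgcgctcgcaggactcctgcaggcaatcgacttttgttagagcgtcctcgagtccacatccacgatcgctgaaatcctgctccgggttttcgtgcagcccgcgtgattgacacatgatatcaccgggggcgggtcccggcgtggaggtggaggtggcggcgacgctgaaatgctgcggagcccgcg
Dusp1: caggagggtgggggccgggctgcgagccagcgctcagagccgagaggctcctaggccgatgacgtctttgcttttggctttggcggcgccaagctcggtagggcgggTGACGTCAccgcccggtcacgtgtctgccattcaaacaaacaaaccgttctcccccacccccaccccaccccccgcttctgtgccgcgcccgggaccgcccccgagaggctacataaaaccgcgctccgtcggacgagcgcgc

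Members of the pathways around these phosphatases passed in the same comparisons, where 11.6% of all genes passed with N642H and 9.58% with Y665F. Of 21 genes of the RAS-ERK cascade, 3 higher and 1 lower with N642H and 3 higher and 1 lower with Y665F passed against the empty vector in null cells, led by *Rras2*, a RAS-related GTPase, at 2.08 (adjusted p = 4.31e-07, 22.5 to 97.5 CPM) with N642H and 1.99 (adjusted p = 7.81e-07, 22.5 to 90.8 CPM) with Y665F, and by *Hras* at 0.68 (adjusted p = 0.000307, 38.1 to 62.5 CPM) with N642H. Of 19 genes of the p38 and JNK cascades, 5 higher and 2 lower with N642H and 5 higher and 2 lower with Y665F passed. *Map2k3*, a kinase that activates p38, gave 0.92 (adjusted p = 0.000909, 57.2 to 111 CPM) with N642H, *Mapkapk3*, a kinase activated by p38, 0.93 (adjusted p = 0.000147, 80.1 to 156 CPM), and *Gadd45g*, an activator of MAP3K4 upstream of p38, 1.67 (adjusted p = 0.00111, 11.3 to 36.7 CPM). Of 14 genes that respond to ERK, 2 higher and 0 lower with N642H and 1 higher and 0 lower with Y665F passed, with *Myc*, also a STAT5 target, at 1.24 (adjusted p = 0.000294, 98.8 to 239 CPM) with N642H. Medians over the lists with N642H were 0.00, -0.01 and 0.16, beside 0.01 over all genes. With Y665H edgeR called 0 genes of the 3 lists, while 1, 3 and 1 of their genes had an unadjusted p under 0.05, beside 1021 of all 20113 genes. In WT cells N642H raised 2 of the p38 and JNK genes, *Gadd45g* (1.28 (adjusted p = 0.0191, 15.2 to 36.5 CPM)) and *Gadd45b* (1.07 (adjusted p = 0.0488, 11.7 to 24.2 CPM)), and 2 of the ERK-responsive genes, *Ier3* (1.99 (adjusted p = 0.0298, 2.02 to 7.97 CPM)) and *Myc* (0.88 (adjusted p = 0.00806, 177 to 322 CPM)), beside 1.52% of all genes. Among the relatives of the 10 genes, *Spred3*, another Spred gene, fell with Y665F at -1.18 (adjusted p = 0.0215, 7.76 to 3.52 CPM) and was higher in null than in WT cells at 1.35 (adjusted p = 0.0111, 3.04 to 7.76 CPM), as was *Spry4* at 1.15 (adjusted p = 0.0282, 2.27 to 5.07 CPM). Of 11 atypical dual-specificity phosphatases 1 passed in null cells, *Dusp22* with N642H, at 0.45 (adjusted p = 0.0134, 15.4 to 21.6 CPM).

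Splenic T cells of the mutant mice gave a different order for *Dusp10*. Its libraries read 30.9, 47.8, 72.2 and 31.97 CPM in WT T cells with IL-2 and IL-7, 42.7, 31.8 and 35.8 in Y665H, 92.7, 144, 143 and 217 in Y665F and 31.9, 104 and 37.7 in Y665F T cells without interleukin. Every Y665F library with interleukin was above every WT and Y665H library with interleukin. Of all genes, 9.43% did not overlap between Y665F and WT and 14.1% between Y665F and Y665H. *Dusp10* was higher in Y665F than in WT T cells (1.70 ± 0.33 SE, adjusted p = 0.00887), 1 of the 10 genes to pass where 1.44% of all genes did, and than in Y665H T cells (2.02 ± 0.38 SE, adjusted p = 0.00312), again 1 of the 10, beside 2.74% of all genes. It was also higher in Y665F T cells with than without interleukin (1.36 ± 0.36 SE, adjusted p = 0.0329, 1 of 10 beside 3.08% of all genes), although replicate 2 without interleukin overlapped the group with it. The difference from WT was 1.72 (adjusted p = 0.00936) without Y665F replicate 3, which stood furthest apart in cell markers, and it missed the threshold at 1.46 (adjusted p = 0.0568) without Y665F replicate 4 and at 1.67 (adjusted p = 0.0537) without WT replicate 4. Between Y665F and Y665H it passed without any 1 library, and was 2.08 (adjusted p = 0.158) among libraries of at least 5000000 reads, which leave a single Y665H library, assumed to vary like the other groups. The interleukin difference of *Dusp10* missed the threshold under RLE size factors (adjusted p = 0.0723), with filterByExpr (0.0677), or when the 2 groups were fitted alone (0.06804), and without Y665F replicate 2 (0.0505) or 4 (0.125) with interleukin or replicate 1 (0.281) or 3 (0.194) without it, and was 2.09 (adjusted p = 0.000918) without replicate 2 without interleukin.

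Cell markers of these preparations also differed between groups and libraries. *Cd4* was at 298, 345, 371 and 372 CPM in the 4 WT libraries, 188, 362 and 317 in Y665H, 219, 210.2, 76.04 and 120.4 in Y665F with interleukin and 261, 157 and 337 without it. The lowest *Cd4* values with interleukin belonged to Y665F replicates 3 and 4, of which replicate 4 held the highest *Dusp10* level, and without interleukin to replicate 2, the highest for *Dusp10* there. Y665F replicates 2 and 3 with interleukin had nearly the same *Dusp10* level, with *Cd4* at 210.2 and 76.04 CPM. WT replicates 3 and 4 were nearly equal in *Cd4* and differed in *Dusp10*. The sum of the 2 CD8 genes was 805 to 1147 CPM in WT and 493 to 1207 CPM in Y665F T cells with interleukin. *Cd4* was lower in Y665F than in WT T cells, at -1.14 (adjusted p = 0.0410, 347 to 156 CPM), the 7 T cell markers summed to 639 to 1872 and 1791 to 2187 CPM, and 4 of 6 neutrophil, 1 of 5 B cell and 2 of 5 erythroid markers were higher, with sums of 68.8 to 281, 13.9 to 457 and 6.28 to 1035 CPM in Y665F against 5.795 to 12.9, 8.69 to 68.2 and 5.68 to 36.6 CPM in WT. The part of these cells in the *Dusp10* difference was not tested, and in bulk samples fewer cells of a type and less RNA per cell cannot be told apart. A gene on the opposite strand within the *Dusp10* locus (chr1:184013302-184075636, GRCm38), 1700056E22Rik, was counted at 0.558 to 7.48 CPM.

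**Figure D3:**
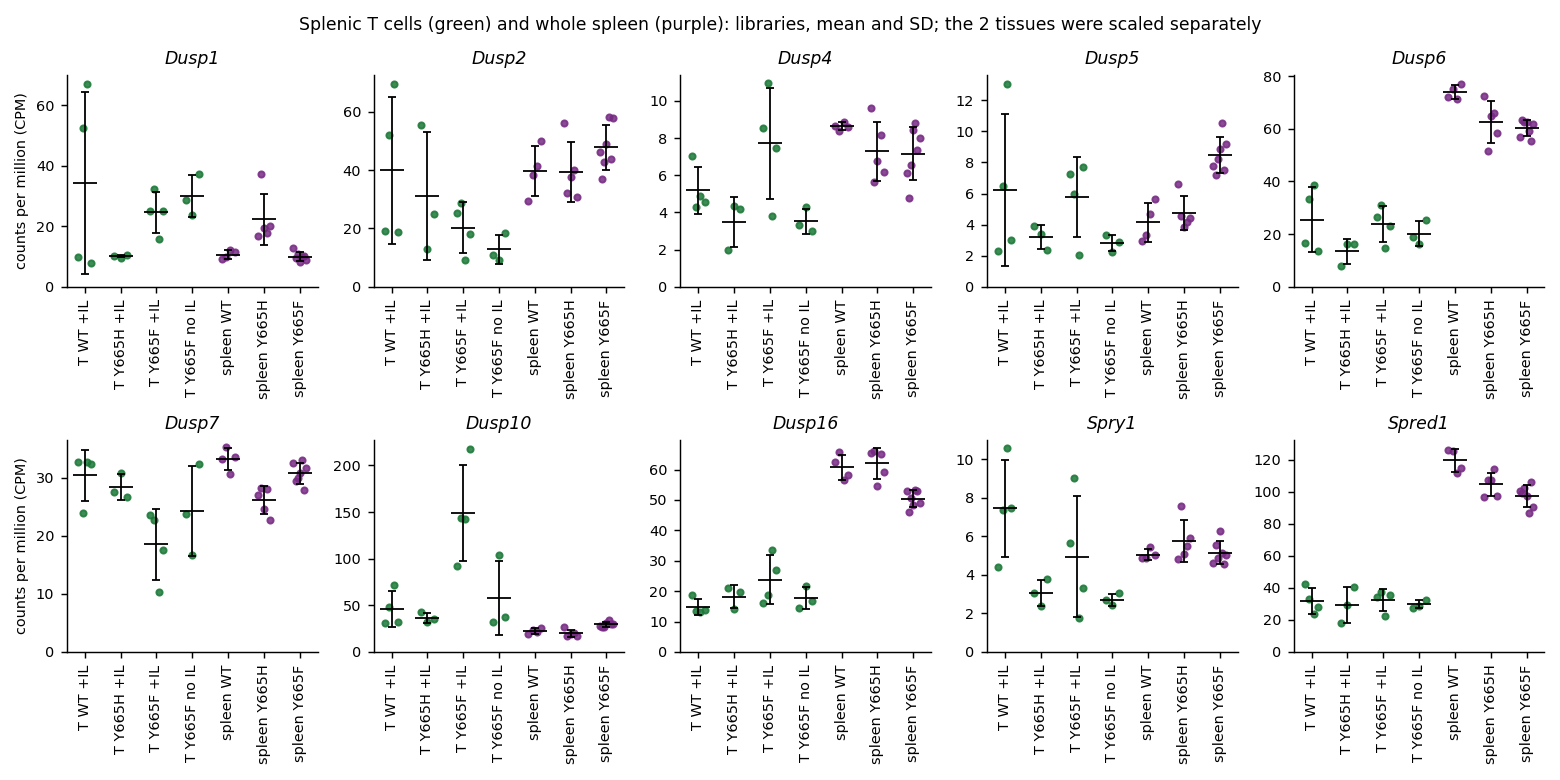
CPM (vertical axes, linear, from 0) of the 10 genes in splenic T cells (green) and spleens (purple) of WT, Y665H and Y665F mice, with a point for each library and the mean and SD as bars. Both tissues were scaled separately, *Dusp10* is highest in Y665F T cells with interleukin, and *Dusp1* is uniformly low in Y665H T cells but highest in Y665H among the spleens.

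Several of the genes varied strongly among the WT T cell libraries. *Dusp1* read 9.84, 52.5, 67.1 and 7.93 CPM, *Dusp2* 19.1, 52.2, 69.7 and 18.9, *Dusp5* 2.297, 6.49, 13.1 and 3.04 and *Dusp6* 16.6, 33.2, 38.6 and 13.4 CPM in WT replicates 1 to 4. In all 4 genes, and in *Dusp10*, replicates 2 and 3 were above replicates 1 and 4, as they were in the summed level of 11 handling and heat stress genes such as *Fos*, *Jun* and *Hspa1a*, 4 of which also stand in the list of ERK-responsive genes (193, 407, 504 and 177 CPM), whose part in these values was not tested. The Y665H libraries were uniform for *Dusp1* (10.3, 9.63 and 10.4 CPM), lay within the WT range, and gave -1.76 (adjusted p = 0.637). Leaving out 1 library at a time, that value ranged from -2.12 (adjusted p = 0.138) without WT replicate 4 to -1.23 (adjusted p = 0.9996) without WT replicate 3. *Spry1* was below every WT library in all Y665H libraries (3.07, 2.41 and 3.76 against 4.43, 7.34, 10.6 and 7.46 CPM), where 6.18% of all genes did not overlap, and gave -1.22 (adjusted p = 0.943). For Y665H against WT, edgeR called 0 of the 10 genes, 3 of the 10 had an unadjusted p under 0.05 and DESeq2 called 0, and 0% of all genes passed, with 1073 genes at an unadjusted p under 0.05 and 34 called by DESeq2. Of the 3 Y665H libraries 2, replicates 1 and 2, held fewer than 5000000 reads on genes, and *Spry1* had 11, 5 and 55 and *Dusp4* 7, 9 and 61 reads in replicates 1 to 3.

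*Dusp4* read 8.57, 10.97, 3.82 and 7.49 CPM in Y665F and 1.95, 4.34 and 4.17 in Y665H T cells, and the lowest Y665F library, replicate 3, lay within the Y665H range. The difference did not pass (1.16 ± 0.42 SE, adjusted p = 0.160). It was called by DESeq2 (adjusted p = 0.02597) and with the merged Y665H library kept beside its parts (0.0442), which counts the same reads again, and not with that library in place of its parts (0.238). With against without interleukin *Dusp4* gave 1.16 (adjusted p = 0.124), and without Y665F replicate 3 with interleukin 1.35 (adjusted p = 0.0331). *Dusp7* did not overlap between Y665F (23.5, 22.7, 10.3 and 17.6 CPM) and WT (32.7, 23.8, 32.7 and 32.4 CPM), like 9.43% of all genes, and gave -0.69 (adjusted p = 0.178). *Dusp16* read 16.2, 18.6, 33.5 and 26.97 CPM in Y665F against 18.8, 13.5, 13.1 and 13.8 in WT, 0.67 (adjusted p = 0.197), with its highest level in replicate 3, and DESeq2 called it (adjusted p = 0.0425). *Spred1* averaged 29.5 to 32.7 CPM over the 3 groups with interleukin, and its 95% interval for Y665F against WT was -0.45 to 0.54 on the log2 scale.

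Of 14 ERK-responsive genes, 13 of which were tested, 1 higher and 0 lower for Y665F against WT, 2 higher and 0 lower for Y665F against Y665H and 3 higher and 0 lower with against without interleukin passed, beside 1.44%, 2.74% and 3.08% of all genes. *Ier3*, an immediate-early gene, was at 2.05 (adjusted p = 0.00219, 3.45 to 14.3 CPM) in Y665F against WT, and *Fosl2*, a partner of JUN in AP-1, at 1.43 (adjusted p = 0.0145, 20.5 to 55.9 CPM) in Y665F against Y665H. *Gadd45g* gave 5.51 (adjusted p = 2.29e-05, 0.193 to 9.06 CPM) with against without interleukin, and *Rasgrp1*, an exchange factor that activates RAS, 1.03 (adjusted p = 0.00992, 611 to 1251 CPM). Between Y665F and Y665H *Gadd45g* gave 3.62 (adjusted p = 0.00275, 0.643 to 9.06 CPM). *Cish* was at 38.1, 40.5, 18.5 and 53.9 CPM in Y665F with and 4.45, 9.51 and 2.35 without interleukin.

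In whole spleens, the direction was again not shared by the 10 genes. *Dusp5* and *Dusp10* rose and *Dusp6*, *Dusp16* and *Spred1* fell in Y665F, where 5 of the 10 genes passed beside 12.2% of all genes (5.63% higher and 6.59% lower). In Y665H, *Dusp1* rose and *Dusp6* and *Dusp7* fell, 3 of 10 beside 19.8% (10.7% higher and 9.05% lower). Between Y665F and Y665H, *Dusp5*, *Dusp7* and *Dusp10* were higher and *Dusp1* and *Dusp16* lower in Y665F, 5 of 10 beside 25.8% (10.5% higher and 15.3% lower). The 3 comparisons share groups. A change beyond the study's minimum was seen for *Dusp5* in Y665F, *Dusp1* in Y665H and *Dusp1* between the mutants, which 1.2%, 4.37% and 5.28% of all genes met.

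*Dusp5* read 2.93, 3.31, 4.71 and 5.65 CPM in the 4 WT spleens, a lowest, median and highest value of 7.17, 8.22 and 10.6 CPM in the 7 Y665F spleens and 6.64, 4.56, 3.86, 4.19 and 4.45 in the 5 Y665H spleens. All Y665F spleens were above all others, where 10.2% of all genes did not overlap between Y665F and WT and 8.41% between Y665F and Y665H. The log2 fold change was 1.02 ± 0.18 SE, adjusted p = 0.00175 against WT and 0.84 ± 0.16 SE, adjusted p = 0.00131 against Y665H. *Dusp10* had 19.3, 23.2, 21.8 and 25.99 CPM in WT, 26.8, 29.9 and 33.9 CPM as lowest, median and highest of Y665F and 26.4, 17.3, 19.2, 20.2 and 16.8 in Y665H. The Y665F spleens did not overlap either group, and *Dusp10* was higher than in WT by 0.38 ± 0.11 SE, adjusted p = 0.0356 and than in Y665H by 0.56 ± 0.11 SE, adjusted p = 0.00107. The first call was lost without WT replicate 1 (adjusted p = 0.126) or 2 (0.0664) or Y665F replicate 5 (0.0575). T cell markers summed to 485 to 572 CPM in WT, 607 to 818 in Y665F and 334 to 499.6 in Y665H spleens. Of the 7 markers, 4 were higher in Y665F than in WT, 5 lower in Y665H than in WT and 7 higher in Y665F than in Y665H. Like this sum, both genes were highest in Y665F. From WT to Y665H, where markers were lower, the mean of *Dusp10* was lower too (22.6 to 19.99 CPM), whereas that of *Dusp5* was higher (4.15 to 4.74 CPM). The part of T cells in the differences of these 2 genes was not tested.

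The falls in Y665F spleens were small. *Dusp6* had 72.2, 75.1, 71.5 and 77.2 CPM in WT and 55.5, 61.9 and 63.2 CPM as lowest, median and highest of Y665F (-0.30 ± 0.08 SE, adjusted p = 0.0178), *Spred1* 126, 126, 112 and 115 and 86.7, 99.6 and 106 CPM (-0.29 ± 0.07 SE, adjusted p = 0.00932), and *Dusp16* 62.6, 65.6, 56.6 and 58.2 and 46.1, 50.8 and 53.1 CPM (-0.27 ± 0.07 SE, adjusted p = 0.0157), with no overlap for any of the 3 genes, as for 10.2% of all genes. *Dusp16* was also lower than in Y665H (-0.30, adjusted p = 0.00207). Calls against WT were lost for *Dusp6* without WT replicate 2 (adjusted p = 0.0549), for *Dusp16* without WT replicate 1 (0.0665) or 2 (0.07695) and for *Spred1* without WT replicate 1 (0.0546), so that 2 of the 10 genes passed without WT replicate 1 and 2 without WT replicate 2. B cell and macrophage markers, which summed to 2043 to 2289 and 2086 to 2436 CPM in WT spleens, summed to 1637 to 2127 and 1789 to 2121 CPM in Y665F, and neutrophil markers to 187 to 301 in WT and 360.4 to 894 in Y665F. Their part in the falls was not tested.

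*Dusp1* was higher in Y665H spleens, whereas its difference in Y665H T cells was below 0 and not called. It read 9.11, 9.83, 12.2 and 11.4 CPM in WT, 16.9, 37.3, 19.4, 17.8 and 20.1 in Y665H and 8.04, 9.95 and 12.7 CPM as lowest, median and highest of Y665F. All Y665H spleens were above all others, with replicate 2 far above the rest, where 10.6% of all genes did not overlap between Y665H and WT and 8.41% between the mutants. The log2 fold change was 1.07 ± 0.20 SE, adjusted p = 0.00234 against WT and -1.16 (adjusted p = 0.000151) for Y665F against Y665H. Without Y665H replicate 2 it was 0.80 (adjusted p = 0.00321) against WT. That library had a handling and heat stress sum of 314 CPM, where the other 4 Y665H spleens had 165 to 188 CPM and the WT spleens 136 to 168 CPM. Of the marker lists, 2 of 5 erythroid and 6 of 6 neutrophil markers were higher in Y665H than in WT spleens. Erythroid sums were 749.6, 4065, 5016, 3518 and 4521 CPM and neutrophil sums 111, 1075, 1446, 353 and 1370.3 CPM in the Y665H spleens. Replicate 1, with the lowest of both, also had the lowest *Dusp1* of its group. With the 4 Y665H spleens over 2 times the highest WT erythroid sum left out, a choice made after seeing the data that leaves a single Y665H library, assumed to vary like the other groups, *Dusp1* was 0.66 (adjusted p = 0.171) against WT and -0.76 (adjusted p = 0.0729) for Y665F against Y665H, and edgeR called none of the 10 genes in either comparison. The part of these cells in the *Dusp1* difference was not tested. *Ergic1*, on the opposite strand, overlaps the annotated *Dusp1* locus (chr17:26505590-26562128, GRCm38). It was counted at 27.9 to 39.3 CPM in spleens, 7.96 to 31.2 in splenic T cells and 104 to 211 in CD4+ T cells. The strand setting of the counting is not given in the sources used here, and a part of *Ergic1* reads in the *Dusp1* counts was not tested.

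*Dusp7* had 33.2, 35.3, 30.7 and 33.6 CPM in WT and 26.9, 28.2, 24.6, 28.1 and 22.7 in Y665H spleens, with no overlap, as for 10.6% of all genes (-0.35 ± 0.08 SE, adjusted p = 0.00502), and was higher in Y665F than in Y665H (0.24, adjusted p = 0.0157). *Dusp6* in Y665H overlapped WT at 72.6, 51.5, 64.9, 66.1 and 58.3 CPM (-0.24 ± 0.08 SE, adjusted p = 0.0463) and lost its call without WT replicate 1 (adjusted p = 0.0961), 2 (0.146) or 4 (0.0818) or Y665H replicate 2 (0.103), 3 (0.0564) or 5 (0.0899). *Dusp2*, *Dusp4* and *Spry1* passed in no spleen comparison. *Dusp4* was tight in WT (8.67, 8.39, 8.89 and 8.596 CPM) and wider in Y665F (4.796 to 8.84 CPM), and *Spry1* averaged 5.04 ± 0.282, 5.15 ± 0.589 and 5.77 ± 1.10 CPM (SD, n = 4, 7 and 5) in WT, Y665F and Y665H. Around them, *Dusp8*, a phosphatase of JNK and p38, was at 1.98 (adjusted p = 0.00301, 2.82 to 11.2 CPM) in Y665H against WT, *Gadd45a* at 1.24 (adjusted p = 0.00418, 15.2 to 35.9 CPM) and *Hras* at 0.86 (adjusted p = 0.00338, 13.2 to 24 CPM), and 4 higher and 6 lower of the 21 RAS-ERK genes passed. In Y665F against WT the RAS-ERK count was 2 higher and 1 lower.

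**Figure D4:**
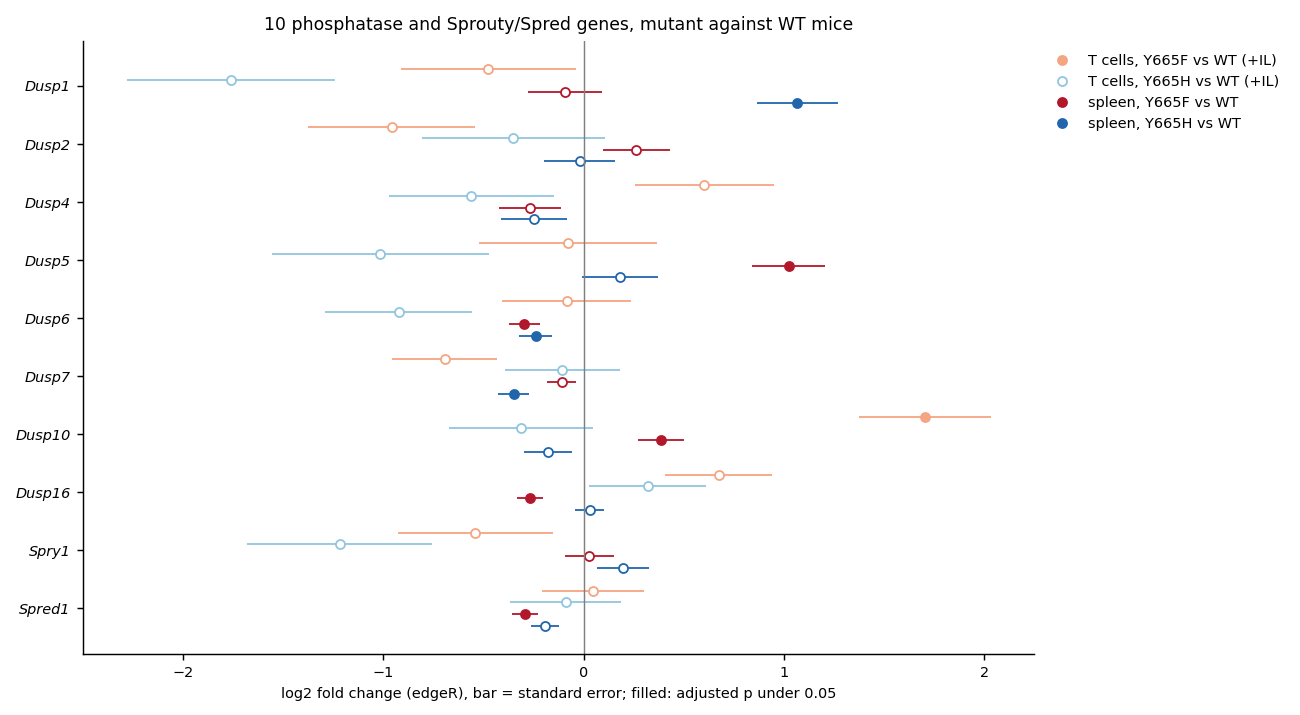
Log2 fold changes against WT (horizontal axis, bars are standard errors) of the 10 genes (rows) in splenic T cells with interleukin and in spleens of Y665F and Y665H mice. Filled points had an adjusted p under 0.05, *Dusp10* is the gene that passed in Y665F in both tissues, and *Dusp1* in Y665H lies on opposite sides of 0 in the tissues.

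Across the experiments, *Dusp10* and *Dusp5* had different orders of the STAT5B forms. In null CD4+ T cells *Dusp10* ranked from empty vector (27.5 CPM) over Y665H (24.4), STAT5B (20.2) and Y665F (17.2) to N642H (16.03), where empty vector overlapped Y665H, STAT5B overlapped Y665F and Y665F overlapped N642H, and Y665H did not overlap STAT5B, as for 12.8% of all genes. In splenic T cells with interleukin, Y665F (149) was above WT (45.7) and Y665H (36.8). The log2 fold change of *Dusp10* with Y665F was -0.71 over empty vector in null CD4+ T cells, -0.53 in WT CD4+ T cells (not called), 1.70 over WT in splenic T cells and 0.38 in spleens. For *Dusp5* the same values were 0.87, -0.27 (not called), -0.08 (not called) and 1.02. These experiments differ in cells, activation and control group, and no test was made between them. Over the 10 CD4 groups, the genes whose group means (log2 of CPM + 1) correlated best with *Dusp10* among 9715 others of at least 5 CPM were *Traf1* (Pearson r = 0.997), *Gimap8* (0.996) and *Rap2b* (0.995). For *Dusp5* they were *U2af2* (0.985), *Pola2* (0.981) and *Scap* (0.975), and for *Spry1* *Tbc1d17* (0.9905), *Tmem127* (0.986) and *Mgrn1* (0.976). These values describe 10 group means taken from the same libraries.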

How the data were processed

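Per the labels and the methods, total RNA libraries (TruSeq Stranded Total RNA, Ribo-Zero Gold) were sequenced, and the authors processed the reads with FastQC 0.11.9, Trimmomatic 0.36, STAR on mm10, SAMtools 1.9, Picard 2.9.2 and HTSeq 0.9.1, whose strand setting is not given in the sources used here. The deposited files hold raw counts for 24421 genes and 5 closing lines of reads without a gene (28.4% to 36.9% of reads in CD4+ T cells, 63.9% to 85.7% in splenic T cells, 62.8% to 69.4% in spleens), which were left out.

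Counts were fitted with edgeR 4.0.16 (limma 3.58.1, R 4.3.3) in null CD4+, WT CD4+, all CD4+, splenic T cell and spleen libraries, for genes of at least 10 reads over the libraries of a fit (19418 to 22295 genes), with TMM factors, glmQLFit and glmQLFTest and Benjamini-Hochberg adjustment over these genes. A standard error is the log2 fold change without its sign over the root of F, and 95% intervals assume a normal error. The study used DESeq2 and RUVSeq, and the second was not applied, as its settings are not given in the sources used here. The fit was tested on simulated data. Nothing in the labels says that replicates of the CD4+ groups came from separate cultures, so that p-values measure the spread between libraries. Y665H T cell replicate 4 (5327354 reads) equals the sum of replicates 1 (3310342) and 2 (2017012) in each of the 24421 genes and was left out, so that each read counts once. No other library of a group was the sum of 2 others, and no pair of libraries was alike within counting error, the closest being Y665H T cell replicates 2 and 3 (chi-square per gene 3.32, where counting error alone gives about 1).

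Replicate numbers were taken as pairs where every same-numbered pair had a correlation of deviations from group means over 0.1, which held in 30 of 30 pairs of null CD4+ cells (median 0.459), 29 of 30 of WT CD4+ cells (median 0.688, lowest -0.0887), 35 of 75 between backgrounds, 5 of 19 of splenic T cells and 4 of 13 of spleens. The main fits held no block in any experiment, so that the main calls in null cells leave the pairing out. The paired values of null cells are those given with the replicate block.

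The 10 genes and all gene lists were chosen with earlier results of these data known. Other genes named were *Stat5b*, *Cish*, up to 3 called genes per list and comparison with the largest change and a mean of at least 1 CPM, and the 3 genes most like each of 3 members. Alternatives were RLE size factors, DESeq2 1.42.0, filterByExpr, no filter, the groups compared alone, the replicate block, the fold minimum and leaving out each library. Chosen after seeing the data were the merged library kept beside or in place of its parts, T cell libraries of at least 5000000 reads and spleens without high erythroid sums.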

Additional observations from a re-analysis of the deposited data

Results flagged for a closer look

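The 4 following libraries lay apart from their groups, by Dixon's ratio of the gap to the whole range, where chance gives about 1 in 20 such cases among the 50 sets tested. *Dusp1* in Y665H spleen replicate 2 was at 37.3 CPM, with the next at 20.1 (ratio 0.842). *Dusp5* in Y665H spleen replicate 1, the spleen of that group with the lowest erythroid and neutrophil sums, was at 6.64 CPM, with the next at 4.56 (ratio 0.747). *Dusp7* in WT T cells replicate 2 was at 23.8 CPM against 32.4 to 32.7 (ratio 0.966), and *Dusp16* in WT T cells replicate 1 at 18.8 against 13.1 to 13.8 CPM (ratio 0.879).

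The response of *Dusp5* to Y665F differed between null and WT CD4+ T cells by 1.19 on the log2 scale in edgeR's interaction test (adjusted p = 0.0426). Differences between splenic T cells and spleens were not tested. For *Dusp1* in Y665H, all 3 T cell libraries were below the WT mean and all 5 spleens above it, with mean log2 differences (CPM + 1) of -1.13 and 0.95, -2.08 apart. For *Dusp16* in Y665F, all T cell libraries were above and all 7 spleens below the WT mean, with 0.61 and -0.26, 0.873 apart.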

How the results depend on the processing

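Of 492 alternative values of the 33 called gene differences, 413 kept direction and threshold, 79 lost the threshold and 0 reversed. With the study's fold minimum the number of the 10 genes called became 0 (from 1) for STAT5B against empty vector in null cells, 0 (from 5) for N642H against empty vector in null cells, 0 (from 4) for Y665F against empty vector in null cells, 0 (from 6) for null against WT, 1 (from 5) for Y665F against WT spleens, 1 (from 3) for Y665H against WT spleens and 1 (from 5) for Y665F against Y665H spleens. With DESeq2 the number of the 10 genes called became 3 (from 1) for STAT5B against empty vector in null cells, 1 (from 0) for Y665H against STAT5B in null cells, 1 (from 0) for N642H in WT cells, 2 (from 0) for Y665F in WT cells, 1 (from 0) for the N642H interaction, 2 (from 1) for Y665F against WT T cells, 2 (from 1) for Y665F against Y665H T cells and 2 (from 1) for T cells with against without interleukin. Over all genes DESeq2 raised the calls from 305 to 1427 for STAT5B in null cells and from 258 to 975 for Y665F in WT cells. They rose from 46 to 462 for Y665H against STAT5B, from 312 to 789 for N642H in WT cells and from 85 to 348 for the N642H interaction. In T cells they rose from 321 to 1418 for Y665F against WT and from 610 to 1524 for Y665F against Y665H. The T cell count with against without interleukin went from 686 to 1368. Smaller changes of a count are left out of these lists. Against empty vector in null cells DESeq2 also called *Dusp1* for N642H and *Dusp1* and *Dusp16* for Y665F, and it called *Dusp7* for null against WT. Its calls over all genes in these comparisons were 3565, 3135 and 4249, against 2340, 1927 and 3052 with edgeR. With filterByExpr the number of the 10 genes called became 2 (from 1) for STAT5B against empty vector in null cells, 2 (from 0) for Y665F in WT cells, 0 (from 1) for the Y665F interaction and 0 (from 1) for T cells with against without interleukin. With the replicate block the number of the 10 genes called became 5 (from 1) for STAT5B against empty vector in null cells, 7 (from 4) for Y665F against empty vector in null cells, 2 (from 0) for N642H against STAT5B in null cells, 3 (from 0) for Y665H against STAT5B in null cells, 3 (from 0) for N642H in WT cells, 6 (from 0) for Y665F in WT cells, 1 (from 0) for the N642H interaction and 1 (from 5) for Y665F against WT spleens. With the groups compared alone the number of the 10 genes called became 0 (from 1) for STAT5B against empty vector in null cells, 1 (from 0) for Y665H against STAT5B in null cells, 0 (from 1) for the Y665F interaction, 2 (from 1) for Y665F against Y665H T cells and 0 (from 1) for T cells with against without interleukin. With RLE size factors the number of the 10 genes called became 0 (from 1) for the Y665F interaction and 0 (from 1) for T cells with against without interleukin. With T cell libraries of at least 5000000 reads the number of the 10 genes called became 0 (from 1) for Y665F against Y665H T cells and 2 (from 1) for T cells with against without interleukin. With the merged library kept beside its parts the number of the 10 genes called became 2 (from 1) for Y665F against Y665H T cells. With spleens of high erythroid sums left out the number of the 10 genes called became 0 (from 3) for Y665H against WT spleens and 0 (from 5) for Y665F against Y665H spleens. Leaving out 1 library at a time, the number called ranged over 0 to 2 for STAT5B against empty vector in null cells, 3 to 4 for N642H against empty vector in null cells, 2 to 4 for Y665F against empty vector in null cells, 0 to 5 for Y665F in WT cells, 3 to 6 for null against WT, 0 to 1 for the N642H interaction, 0 to 1 for the Y665F interaction, 0 to 1 for Y665F against WT T cells, 0 to 2 for T cells with against without interleukin, 2 to 5 for Y665F against WT spleens, 2 to 3 for Y665H against WT spleens and 5 to 6 for Y665F against Y665H spleens. The 5 genes for Y665F in WT cells came without Y665F replicate 3. In null cells the block left each call in place, and in all genes it raised the calls from 305 to 1911 for STAT5B. It raised them from 85 to 326 for the N642H interaction and lowered them from 2373 to 447 for Y665F against WT spleens. In WT cells, where numbers did not pair in every case, it raised them from 258 to 2451 for Y665F, and among the 10 genes it called *Dusp4*, *Dusp6*, *Dusp7*, *Dusp10*, *Spry1* and *Spred1* for Y665F and *Dusp4*, *Dusp10* and *Spred1* for N642H. The cause of these changes was not tested. RLE size factors shifted the median log2 fold change of all genes by 0.12 for Y665F against WT T cells and by -0.14 for T cells with against without interleukin. After that shift *Dusp10* stood at 1.87 and 1.25. Depth limits the splenic T cells, where 3 of 14 libraries held fewer than 5000000 reads on genes.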
